A study of Mus musculus with 8 samples.

Results

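Collagen chain genes were followed in palatal shelves, the outgrowths of the upper jaw that join to form the palate, of mouse embryos at embryonic day 14.5. The members were the probe sets whose annotation holds a single symbol made of Col, a number, the letter a and a number. This gave 82 of 45037 probe sets and 42 of 18193 named genes. A filter on dim signals, applied to the mean over all 8 arrays without regard to genotype, kept 63 collagen probe sets of 36 genes. The 6 genes with no kept probe set were Col4a3, Col4a4, Col6a4, Col6a5, Col10a1 and Col19a1. Their signals reached at most 34.0 and stayed under the array median everywhere, so presence and absence are not separable for them. Col6a6, Col21a1 and Col28a1 were not analysed here.

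The arrays compared 4 samples labelled R26Pax3/Pax3 with 4 labelled wild type. Both kinds were littermates from a cross of C57BL/6 with SV129, and total RNA was hybridised to Affymetrix arrays. The genotype name stands for Pax3, a paired-box regulator of the neural crest, placed at the Rosa26 locus. The labels give neither a driver of the allele nor the cells that express it, and they do not say whether a sample held 1 embryo or several, so the spread behind each p-value is that among these 8 samples. The R26Pax3/Pax3 replicates are numbered 1, 3, 4 and 7 and the wild type replicates 2, 6, 8 and 11, and values are listed below in that order.

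Collagens are extracellular proteins whose chains wind around one another in a triple helix built on a repeated glycine-containing motif. Fibrillar collagens assemble into the fibrils that carry tension in bone, cartilage and mesenchyme, and they make up much of the matrix of the growing shelf. Type IV chains form the sheet of basement membranes, the network-forming types VIII and X form lattices, and the FACIT group (fibril-associated collagens with interrupted triple helices) binds to the surface of fibrils. The remaining chains include beaded filaments of type VI, the anchoring fibrils of type VII, membrane-spanning collagens and the heparan sulfate proteoglycan collagens of vascular and epithelial basement membranes. Several collagen types contain chains of different genes, and those genes are described beside their chain partners.

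The arrays were alike in overall signal. Their medians lay between 43.5 and 44.9, the correlation between arrays on the log2 scale lay between 0.974 and 0.982, and 0 pairs of arrays held identical values. Pax3 itself read 619 ± 88.8 in the samples labelled R26Pax3/Pax3 and 162 ± 14.6 in the wild type ones (signal, SD, n = 4 each), a log2 difference of 1.83 (limma adjusted p = 1.7e-05). All 8 marker genes of palate mesenchyme, among them Osr2, Shox2, Msx1 and Prrx1, lay above the array median on all 8 arrays, and their summed signal ran from 7150 to 7985 in R26Pax3/Pax3 and from 7026 to 7625 in wild type. The first 4 and the last 4 arrays in deposit order stood apart from each other over all kept probe sets, on a first principal component with 21.8% of the variance. The first set held R26Pax3/Pax3 replicates 1 and 3 with wild type replicates 6 and 8, and the last set held R26Pax3/Pax3 replicates 4 and 7 with wild type replicates 2 and 11. The labels do not say what the sets are, and differences within the first and the last set are given, in that order, beside the full ones for the genes described.

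Among the 36 measured collagens, 3 genes had groups that did not overlap on their representative probe set. Of these 2 were lower and 1 higher in R26Pax3/Pax3, beside 1.49% and 1.73% of all genes. Their promoters are shown because the genotypes separated on all 8 arrays on that probe set. Each sequence is the 200 bases before the annotated transcript start in RefSeq, build GRCm38.p6, 5′ to 3′ on the strand of the gene. Col11a1 lies at chr3:114030340-114030539 on the plus strand, Col11a2 at chr17:34038938-34039137 on the plus strand and Col5a3 at chr9:20815068-20815267 on the minus strand. Capitals mark matches to the motifs searched.
Col11a1: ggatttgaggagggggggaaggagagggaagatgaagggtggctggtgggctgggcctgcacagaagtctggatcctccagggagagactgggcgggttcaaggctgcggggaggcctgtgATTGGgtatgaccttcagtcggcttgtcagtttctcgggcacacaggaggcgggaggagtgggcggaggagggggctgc
Col11a2: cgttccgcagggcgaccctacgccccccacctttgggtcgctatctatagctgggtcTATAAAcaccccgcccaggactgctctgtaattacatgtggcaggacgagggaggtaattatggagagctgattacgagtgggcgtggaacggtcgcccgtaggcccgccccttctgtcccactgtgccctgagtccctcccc
Col5a3: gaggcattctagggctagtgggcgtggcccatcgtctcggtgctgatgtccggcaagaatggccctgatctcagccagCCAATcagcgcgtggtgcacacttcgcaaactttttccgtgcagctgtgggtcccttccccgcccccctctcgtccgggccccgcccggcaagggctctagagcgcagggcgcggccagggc

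The motifs searched, on both strands, were the box CCAAT, the box TATAAA, the Runx core TGTGGT, the Sox core ACAAAG and a core of paired-domain binding, GTCAC. No motif overlapped another in these 3 windows. CCAAT was found once in Col11a1, beginning 79 bases before the start on the opposite strand, and once in Col5a3, 122 bases before it. TATAAA was found once in Col11a2, 143 bases before the start. The letters of the Runx, Sox and paired-domain cores were not in the 3 windows. Over all 32851 windows of this length, the CCAAT box was present in 29.3%, the TATAAA box in 9.96%, the Runx core in 11.2%, the Sox core in 13.3% and the paired-domain core in 34.1%. Entries were found for 28 of the 36 measured collagen genes, as 31 windows, of which 10 held the CCAAT box, 3 the TATAAA box, 2 the Runx core, 1 the Sox core and 5 the paired-domain core. GC content was 64% in Col11a1, 61% in Col11a2 and 67% in Col5a3.

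Fibrillar collagens had lower mean signals in R26Pax3/Pax3, with the smallest p-values at the type XI chains. Basement membrane and network-forming collagens had medians near 0 over all arrays. The fibrillar median was -0.03 in the first and -0.32 in the last set, and the basement membrane median 0.12 and -0.28. In the last set these classes thus lay close together. No collagen probe set passed the test over all probe sets. Of 63 collagen probe sets, 0 had an adjusted p under 0.05 in limma, where 0.0148% of all 27021 probe sets did (4 in number), and the smallest adjusted p of a collagen was 0.470. At an unadjusted p under 0.05, 12 of the 63 were lower in R26Pax3/Pax3 and 2 higher, beside 2.44% of all probe sets lower and 2.43% higher. Without R26Pax3/Pax3 replicate 4 the number of lower ones was 7, and without replicate 1 it was 17. Groups did not overlap in 3 collagen probe sets that were lower and 1 that was higher, beside 1.34% and 1.39% of all probe sets. Counted by gene, with the probe set of highest mean standing for each, 6 of 36 genes were lower and 2 higher at an unadjusted p under 0.05, beside 2.90% and 2.68% of the 12339 genes measured. Of the 36 genes, 2 were lower and 1 higher without overlap between groups, beside 1.49% and 1.73% of all genes.

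By class, 10 of 11 fibrillar genes had a lower mean in R26Pax3/Pax3, with a median log2 difference of -0.15. The 4 basement membrane genes were all lower by small amounts, with a median of -0.03, and the pair of network-forming genes lay on opposite sides of 0, with a median of -0.01. Of 8 FACIT genes 6 were lower, with a median of -0.13, and of 11 other collagens 5 were lower, with a median of 0.01. Over all collagen genes 26 of 36 were lower, with a median of -0.09, where 51% of all genes were lower and their median was 0.00. The class medians were not tested. When each array was left out in turn, the median over all collagen genes lay between -0.13 and -0.05, the latter without R26Pax3/Pax3 replicate 7 or wild type replicate 2. The fibrillar median was -0.24 without R26Pax3/Pax3 replicate 1 and -0.24 without replicate 3. Both values were at the low end of its range over arrays left out. In the first 4 arrays alone the fibrillar median was -0.03. The FACIT median was 0.02 without wild type replicate 6 and -0.30 without wild type replicate 11.

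**Figure D1:**
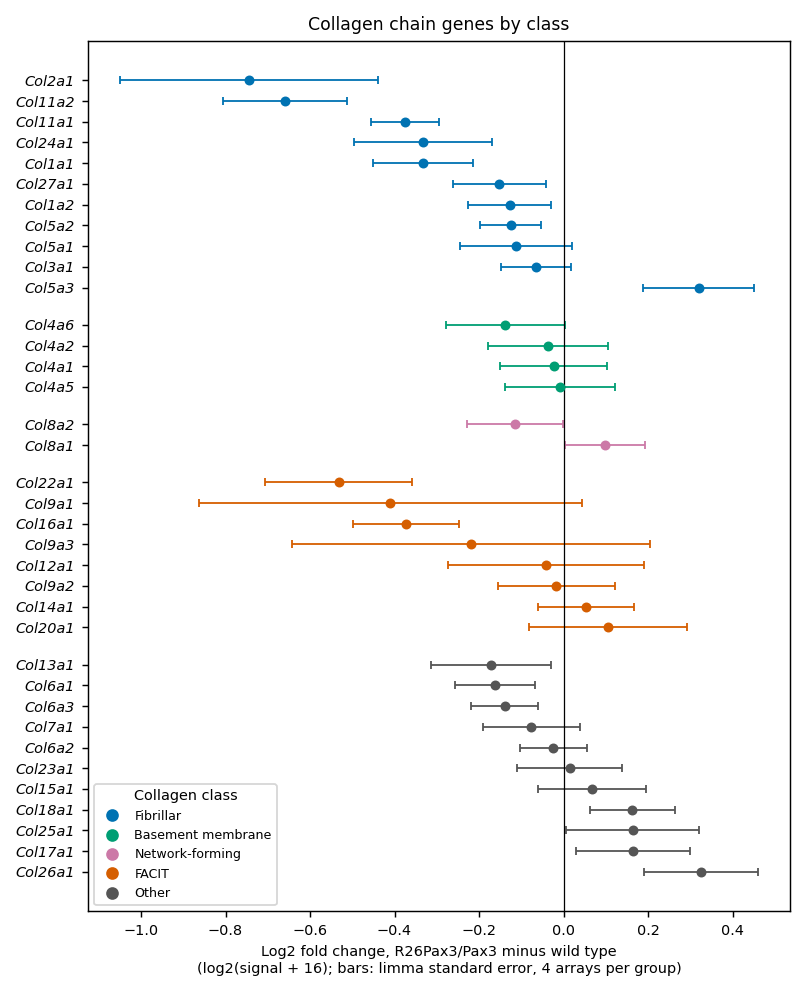
Log2 difference (R26Pax3/Pax3 minus wild type, on log2(signal + 16)) of the 36 measured collagen genes, grouped and coloured by class, with limma's standard error as bars (4 arrays per group). The fibrillar genes lie left of 0 except Col5a3, the 4 basement membrane genes lie just left of it, and the network-forming, FACIT and other genes lie on both sides.

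Type XI collagen is a minor fibrillar collagen that sits inside fibrils of cartilage and of other tissues and limits their width. On its brighter probe set Col11a1, which encodes the alpha 1 chain, read 1632, 1675, 1574 and 1372 on the R26Pax3/Pax3 arrays and 1915, 2184, 1941 and 2079 on those of wild type. Every R26Pax3/Pax3 array lay below every wild type array. The means were 1563 ± 134 and 2029.8 ± 126 (SD, n = 4 each), so that wild type stood 1.30-fold higher, and the log2 difference was -0.38 ± 0.0809 (SE), with limma adjusted p = 0.470 over all probe sets and an unadjusted p of 0.000591. It came to -0.31 in the first set and -0.44 in the last, and it lay between -0.41 and -0.31 when each array was left out in turn. The second probe set of Col11a1 had a difference of -0.33, with -0.40 and -0.26 within the sets. On it the groups overlapped, since wild type replicate 2 (984) lay below R26Pax3/Pax3 replicates 3 and 4 (988 and 1036).

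Col11a2, the alpha 2 chain that joins Col11a1 in the type XI molecule, showed the second-largest difference of the fibrillar genes. It read 179.8, 188, 135 and 164 on the R26Pax3/Pax3 arrays and 271, 237, 231 and 361 on those of wild type, again without overlap, and wild type replicate 11 was the highest of all. The means were 167 ± 23.4 and 275 ± 59.96 (SD, n = 4 each), wild type being 1.65-fold higher, and the log2 difference was -0.66 ± 0.146 (SE, limma adjusted p = 0.497). Within the sets it was -0.32 and -0.997, both negative but of unequal size. Leaving out each array gave -0.73 to -0.53.

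Col2a1 encodes the chain of type II collagen, the main fibril of cartilage, which also contributes a chain to type XI. Its single probe set read 343, 696, 279 and 212 on the R26Pax3/Pax3 arrays and 468, 916, 609 and 464 on those of wild type. The groups overlapped, since R26Pax3/Pax3 replicate 3 lay above wild type replicates 2, 8 and 11. The log2 difference was the largest of the collagens in size and also the least precise of the fibrillar ones, -0.74 ± 0.306 (SE, limma adjusted p = 0.995). It was -0.59 and -0.90 within the sets and ranged from -1.07 to -0.52 when arrays were left out.

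The summed signal of 12 cartilage genes other than collagens was 995, 1273, 984 and 991 in R26Pax3/Pax3 and 1002, 1559, 942 and 989 in wild type. Its highest arrays, wild type replicate 6 and R26Pax3/Pax3 replicate 3, were also the highest for Col2a1. For Col11a1 they were the highest of their genotype, and for Col11a2 the highest array was wild type replicate 11. Of these marker genes 9 passed the filter, 5 of them lower in R26Pax3/Pax3, with a median log2 difference of -0.02. The lower ones were Acan (-0.50), Matn1 (-0.49), Hapln1 (-0.27), Mia (-0.12) and Snorc (-0.02). The others were Sox9 (0.00), Sox5 (0.02), Sox6 (0.13) and Cnmd (0.19). Within the sum, Sox6 alone read 361 to 477 in R26Pax3/Pax3 and 354 to 404 in wild type. On every array 4 of the 12 lay above the array median. The part of cartilage content in the differences of Col2a1, Col11a1 and Col11a2 was not tested. In dissected tissue fewer cells of a type and less RNA per cell cannot be told apart.

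Type I collagen, the main fibril of bone and mesenchyme, is built from chains of Col1a1 and Col1a2. Col1a1 read 7186, 6850.3, 5187 and 5610.2 on the R26Pax3/Pax3 arrays and 8843, 7484, 6528 and 8344 on those of wild type on its brighter probe set. The groups overlapped through wild type replicate 8, which lay below R26Pax3/Pax3 replicates 1 and 3. The log2 difference was -0.33 ± 0.118 (SE, limma adjusted p = 0.968, unadjusted p = 0.0157), made up of 0.01 within the first and -0.67 within the last set. The dimmer probe set had -0.28, with 0.26 and -0.83 within the sets, so in the first set neither probe set was lower. In a limma fit on the last 4 arrays alone, added after the data were seen, the brighter probe set passed the threshold (adjusted p = 0.0497), and the difference between the sets, -0.67 ± 0.127 (SE), did not (limma interaction, adjusted p = 0.225).

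Col1a2 gave smaller differences. Its brightest probe set read 11913, 9789, 9359 and 9492 on the R26Pax3/Pax3 arrays and 12626, 11111, 9417 and 11174 on those of wild type, with a log2 difference of -0.13 ± 0.0988 (SE), 0.08 and -0.33 within the sets. The second probe set had -0.24 (0.00 and -0.49 within the sets). The third, which had the lowest signal, read 640.0, 544, 656 and 631 on the R26Pax3/Pax3 arrays and 663, 764, 705 and 908 on those of wild type. On it the groups did not overlap, and the difference was -0.29 ± 0.105 (SE, limma adjusted p = 0.968), with -0.31 and -0.26 within the sets. The probe sets of Col1a2 thus had the same sign over all arrays but differed in how the sets contributed.

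Beside the type I chains, the 6 measured bone genes other than collagens were all lower in R26Pax3/Pax3, with a median log2 difference of -0.41. Their summed signal ran from 7063 to 8338 in R26Pax3/Pax3 and from 8132 to 10649 in wild type, and all 6 lay above the array median on every array. In the first set the median of these bone genes was -0.29, and in the last -0.52. Their part in the Col1a1 difference was not tested.

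The remaining fibrillar chains had negative differences, with 1 exception. Col3a1, the chain of type III collagen of soft tissues, had -0.07 and -0.19 on its 2 probe sets, and the first of these was made up of 0.11 and -0.24 within the sets. The second was made up of -0.21 and -0.17 (limma unadjusted p = 0.0452 over all arrays). The type V chains, which start fibril assembly together with type I, had -0.11, -0.18 and -0.11 for Col5a1 and -0.13 and -0.22 for Col5a2. Within the sets the first of these values came to 0.01 and -0.24 for Col5a1 and -0.03 and -0.23 for Col5a2. The second came to -0.04 and -0.32 for Col5a1 and, with a limma unadjusted p of 0.0314 over all arrays, to -0.17 and -0.28 for Col5a2. The third of Col5a1 came to 0.07 and -0.30. Col24a1, a chain of a minor fibrillar collagen of developing bone, had -0.33 ± 0.163 (SE, limma unadjusted p = 0.0638), nearly the same within both sets (-0.34 and -0.32). Col27a1, expressed in developing cartilage, had -0.15 and -0.25 on its 2 probe sets, the first made up of -0.21 and -0.10 and the second of -0.10 and -0.41.

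Col5a3, the third chain of type V collagen, was the only fibrillar gene with a higher mean in R26Pax3/Pax3 among the 11 measured. It read 55.8, 49.2, 62.6 and 59.2 on the R26Pax3/Pax3 arrays and 43.9, 39.9, 37.2 and 48.0 on those of wild type, without overlap. The log2 difference was 0.32 ± 0.131 (SE, limma adjusted p = 0.995), 0.33 and 0.31 within the sets. The signal was dim, and 3 of the 4 wild type values were under the array median. With 64 in place of 16 added to the signal the difference was 0.18. A second probe set of the gene did not pass the filter.

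**Figure D2:**
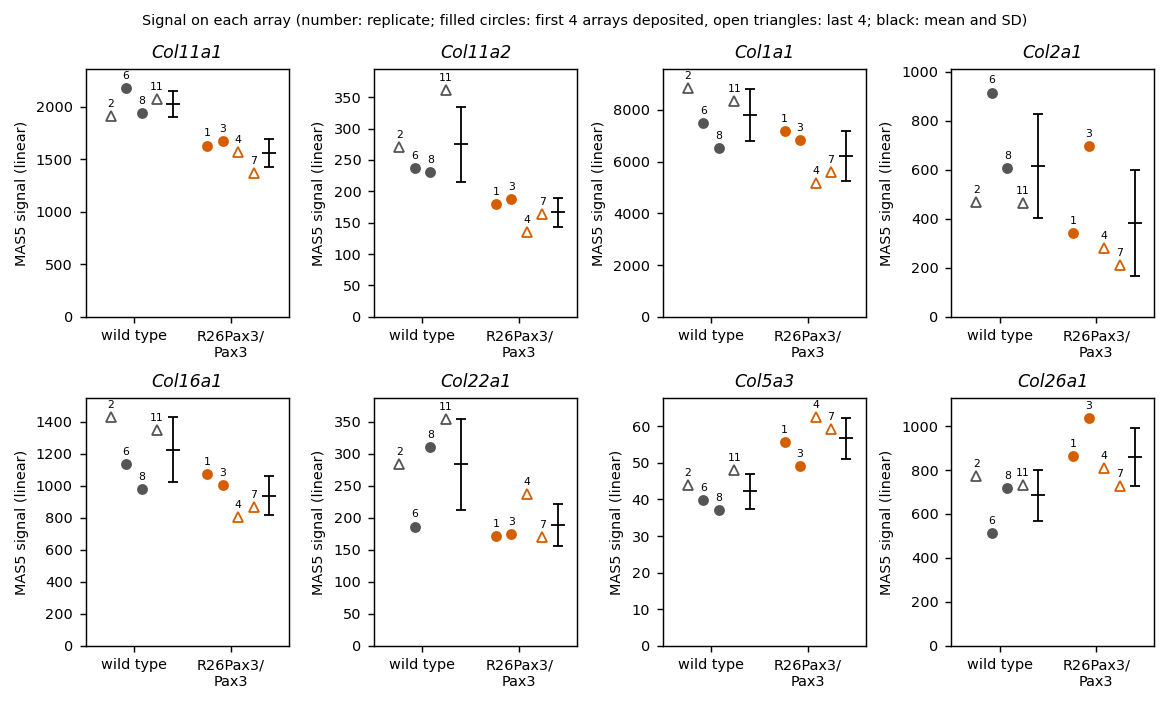
Linear MAS5 signal of 8 collagen genes with an unadjusted p under 0.05 on each array (point label: replicate number; filled circles: first 4 arrays deposited, open triangles: last 4), with the mean and SD of each group in black (n = 4). For Col11a1, Col11a2 and Col5a3 the genotypes do not overlap, while for the other 5 genes at least 1 array lies within the range of the other genotype.

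Among FACIT collagens Col22a1 and Col16a1 had lower means in R26Pax3/Pax3, and the type IX chains Col9a1 and Col9a3 varied most between single arrays. Col22a1, a collagen of the junction between muscle and tendon, read 171, 174, 238 and 170.3 on the R26Pax3/Pax3 arrays and 284, 186, 311 and 354 on those of wild type. Only wild type replicate 6 lay within the R26Pax3/Pax3 range. The log2 difference was -0.53 ± 0.175 (SE, limma adjusted p = 0.907), with -0.45 and -0.62 within the sets. The other kept probe sets of Col22a1 had -0.53 and -0.15. The summed signal of 8 skeletal muscle genes was 1680, 2949, 3597 and 426 in R26Pax3/Pax3 and 3409, 1660, 2853 and 4117 in wild type. Its lowest wild type array and its highest R26Pax3/Pax3 array were those of Col22a1 as well. R26Pax3/Pax3 replicates 1, 3 and 7 differed in this sum (1680, 2949 and 426) but little in Col22a1 (171, 174 and 170.3). The 7 measured muscle genes were all lower, with a median log2 difference of -0.69, and medians of -0.04 and -1.33 within the sets. The part of muscle content in the Col22a1 difference was not tested.

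Col16a1, a FACIT chain of connective tissue fibrils, read 1072, 1007, 808 and 865 on the R26Pax3/Pax3 arrays and 1429, 1139, 981 and 1348 on those of wild type. Wild type replicates 2 and 11 were the highest arrays, and wild type replicate 8 lay below R26Pax3/Pax3 replicates 1 and 3. Its log2 difference of -0.37 ± 0.126 (SE, limma adjusted p = 0.918) came from -0.03 within the first and -0.72 within the last set. Col1a1 had the same division between the sets.

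Type IX collagen coats the fibrils of cartilage and is assembled from chains of Col9a1, Col9a2 and Col9a3. Col9a1 read 156, 599.6, 236 and 151 on the R26Pax3/Pax3 arrays and 217, 805, 333 and 192 on those of wild type. Wild type replicate 6 and R26Pax3/Pax3 replicate 3 stood above the other arrays, as they did for Col2a1 and for the sum of the other cartilage genes. The log2 difference was -0.41 ± 0.453 (SE, limma unadjusted p = 0.383), and without wild type replicate 6 it was 0.01. Within the sets it was -0.72 and -0.10. A second probe set of Col9a1 had -0.28. Col9a3, described because the same arrays led it, read 82.2, 179, 25.7 and 63.7 on the R26Pax3/Pax3 arrays and 93.2, 188, 55.4 and 57.6 on those of wild type, and its 2 kept probe sets had opposite signs, -0.22 and 0.26. The first of these came to 0.20 and -0.64 within the sets. Col9a2 had -0.02 ± 0.138 (SE), 0.05 and -0.08 within the sets. The range of Col9a2 over all arrays, 107 to 176, was narrower than that of Col9a1.

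Col12a1, a FACIT chain of tendon and fascia, had differences of opposite sign within the sets, -0.60 and 0.52, and -0.04 overall. Its wild type arrays spread more widely (412 to 1094) than its R26Pax3/Pax3 arrays (585 to 751). The other kept probe set of Col12a1 had -0.15. Col14a1, a FACIT chain of skin and tendon, had 0.05, 0.03 and 0.22 on its 3 probe sets, the first made up of -0.07 and 0.18. Col20a1 had 0.11 (0.06 and 0.15 within the sets), but all 8 of its values were under the array median, so the signal may be background.

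Basement membrane collagens had differences smaller than their errors on the representative probe sets. Col4a1 and Col4a2, whose chains form the general type IV network, are transcribed in opposite directions from starts 21 bases apart in the RefSeq table. Col4a1 read 2277, 2736, 2015 and 1800.4 on the R26Pax3/Pax3 arrays and 2549, 1966, 2411 and 1996 on those of wild type, a log2 difference of -0.02 ± 0.127 (SE). Col4a2 read 1113, 1208, 827 and 716 on the R26Pax3/Pax3 arrays and 1022, 910.4, 996 and 955 on those of wild type, a log2 difference of -0.04 ± 0.142 (SE). Within the sets both turned sign, from 0.20 to -0.24 for Col4a1 and from 0.28 to -0.35 for Col4a2, and on both R26Pax3/Pax3 replicate 3 was the highest and replicate 7 the lowest array. A second probe set of Col4a1 had -0.16. The 7 endothelial marker genes, a source of type IV collagen in vessels, had a median difference of 0.01, 0.18 in the first and -0.08 in the last set, with a summed signal of 1186 to 1367 in R26Pax3/Pax3 and 1219 to 1304 in wild type.

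Col4a5 and Col4a6, the chains of epithelial and smooth muscle basement membranes, lie on the X chromosome with opposite starts 1343 bases apart. Col4a5 had -0.01 and -0.06 on its 2 probe sets, the first made up of -0.16 and 0.15. Col4a6 read 60.5, 61.0, 60.1 and 51.9 on the R26Pax3/Pax3 arrays and 86.9, 62.1, 55.2 and 62.0 on those of wild type, a log2 difference of -0.14 ± 0.141 (SE), with wild type replicate 2 the highest array and 0.04 and -0.32 within the sets. Its second probe set had -0.08, with 7 of 8 values below the array medians.

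The network-forming chains of type VIII, a collagen of vessel walls and of the cornea, had differences of opposite sign. Col8a1 read 1674, 1587, 1505 and 1906 on the R26Pax3/Pax3 arrays and 1494, 1746, 1617 and 1375 on those of wild type, with differences of 0.10, -0.09 and 0.09 on its 3 probe sets. Col8a2 read 563, 670.4, 474 and 496 on the R26Pax3/Pax3 arrays and 579, 525, 614 and 658 on those of wild type, a difference of -0.11 ± 0.114 (SE). For both genes the groups overlapped, and within the sets the brightest probe sets had opposite signs, -0.04 and 0.24 for Col8a1 and 0.11 and -0.34 for Col8a2. Col10a1, the network collagen of hypertrophic cartilage, read at most 3.0 on any array.

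**Figure D3:**
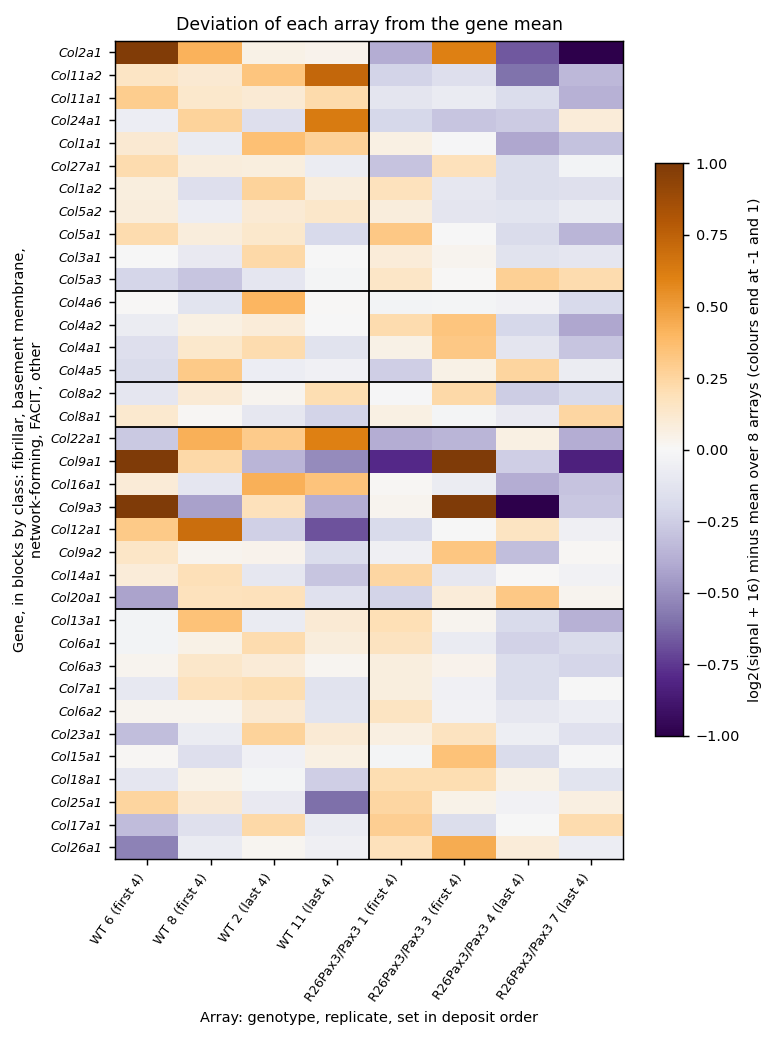
Log2(signal + 16) of each measured collagen gene on each array, minus the gene's mean over the 8 arrays; rows are genes in blocks by class, columns are arrays by genotype and set, and colours end at -1 and 1. Wild type replicate 6 and R26Pax3/Pax3 replicate 3 are high for Col2a1, Col9a1 and Col9a3, and R26Pax3/Pax3 replicates 4 and 7 are low over most fibrillar genes.

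Type VI collagen, whose beaded filaments surround cells, is assembled from Col6a1, Col6a2 and Col6a3. Col6a1 read 2147, 1798, 1625 and 1674 on the R26Pax3/Pax3 arrays and 2214, 1868, 1978 and 2022 on those of wild type, a difference of -0.16 ± 0.0939 (SE, limma unadjusted p = 0.109). Col6a3 read 3369.6, 3265, 2833 and 2749 on the R26Pax3/Pax3 arrays and 3427, 3255, 3509.9 and 3229 on those of wild type, a difference of -0.14 ± 0.0791 (SE, limma unadjusted p = 0.103). Col6a2 had -0.02 and -0.16 on its 2 probe sets. For Col6a1 and Col6a3 the groups overlapped, and R26Pax3/Pax3 replicates 4 and 7 were the lowest arrays. Within the sets Col6a1 had 0.03 and -0.36, Col6a3 had -0.03 and -0.25 and Col6a2 had 0.03 and -0.08 on the first probe set.

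Col26a1, a secreted chain with short collagen stretches, had the largest positive difference of the 36 genes. It read 863, 1037, 811 and 726 on the R26Pax3/Pax3 arrays and 771, 515, 718 and 734 on those of wild type, with overlap between R26Pax3/Pax3 replicate 7 and wild type replicates 2 and 11. Its log2 difference was 0.33 ± 0.136 (SE, limma adjusted p = 0.995), 0.62 within the first and 0.03 within the last set. R26Pax3/Pax3 replicate 3 was the highest array and wild type replicate 6 the lowest. The second probe set of Col26a1 had 0.35, with 7 of 8 values below the array medians.

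Collagens of epithelial attachment had small differences on opposite sides. Col17a1, a membrane collagen of the hemidesmosome, had 0.16 ± 0.136 (SE), and Col7a1, the chain of anchoring fibrils, had -0.08 ± 0.115 (SE). Within the sets these were 0.30 and 0.03 for Col17a1 and -0.02 and -0.13 for Col7a1. The 8 epithelial marker genes were all higher in R26Pax3/Pax3, with a median difference of 0.33 (0.26 and 0.43 within the sets) and summed signals of 4890 to 6631 against 3738 to 5721 in wild type. Of the proteoglycan collagens, Col18a1, the source of endostatin, had 0.16 and 0.08, and Col15a1 had 0.07. Among membrane-spanning chains, Col13a1 had -0.17, Col23a1 had 0.01, 0.16 and 0.21, and Col25a1 had 0.16 and -0.12. On the brightest probe sets the values within the sets were 0.24 and 0.09 for Col18a1, 0.24 and -0.11 for Col15a1 and -0.05 and -0.29 for Col13a1. They had opposite signs for Col23a1, 0.31 and -0.28, and for Col25a1, -0.04 and 0.36.

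Probe sets of the same gene mostly shared a sign. Of 21 collagen genes with more than 1 kept probe set, 14 were lower on all of them, 4 were higher on all, and 3 had mixed signs, Col8a1, Col9a3 and Col25a1. Probe sets of a gene read the same RNA samples, so they do not add replicates.

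Within the sets, the lower collagen signals lay mostly in the last 4 arrays. The median difference over the 36 genes was 0.01 in the first and -0.24 in the last set, where all genes had 0.01 and -0.01. In the first set 17 of 36 collagen genes were lower, and in the last set 26 of 36. Fibrillar genes had medians of -0.03 and -0.32, with 6 of 11 and 10 of 11 lower. On the representative probe sets, the 6 fibrillar genes lower in both sets were Col2a1, Col5a2, Col11a1, Col11a2, Col24a1 and Col27a1. Over all collagens 12 of 36 (33.3%) were lower in both sets and 5 higher in both (13.9%), beside 22.5% and 21.1% of all genes.

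Each set was also fitted alone with limma, and the difference between the sets was tested as an interaction, both added after the data were seen. In the first set 0 of 63 collagen probe sets were called (0.0296% of all probe sets), 5 were lower and 4 higher at an unadjusted p under 0.05, beside 2.58% and 2.93% of all. In the last set 1 was called, Col1a1 (0.0555% of all), 25 were lower and 1 higher at an unadjusted p under 0.05, beside 6.02% and 5.01% of all. The interaction called 0 collagen probe sets (0.0222% of all). At an unadjusted p under 0.05 its difference, last set minus first, was negative in 17 and positive in 1, beside 6.16% and 5.0% of all. The smallest p-value of the interaction was that of Col1a1.

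**Figure D4:**
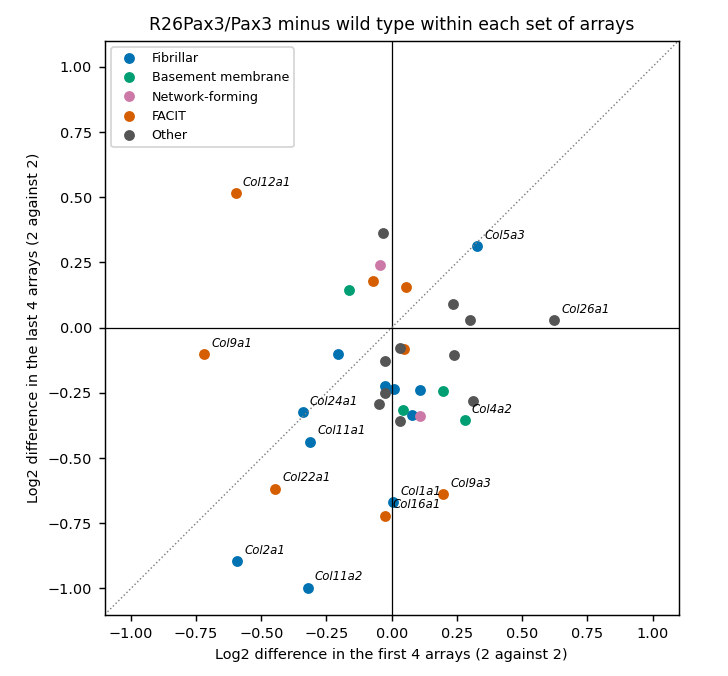
Log2 difference (R26Pax3/Pax3 minus wild type) of each measured collagen gene within the first 4 arrays (horizontal axis) and within the last 4 arrays (vertical axis) in deposit order, coloured by class, with the dotted line marking equal values. Col2a1, Col11a1, Col11a2, Col22a1 and Col24a1 lie below 0 on both axes and Col5a3 above 0 on both, while Col1a1 and Col16a1 lie near 0 in the first set only.

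Genes that make and assemble collagen were also lower on balance. Of 17 genes of chain synthesis in the endoplasmic reticulum, 16 were lower and 1 higher, where 51% of all genes were lower. Their median log2 difference was -0.16, and 0 were called over all probe sets. At an unadjusted p under 0.05, 4 were lower and 0 higher, beside 2.90% and 2.68% of all genes. The smallest p-values were those of P4ha2 and P4ha1, alpha subunits of prolyl 4-hydroxylase, the enzyme that stabilises the helix. P4ha2 read 562, 437, 466 and 538 on the R26Pax3/Pax3 arrays and 639.7, 807, 667 and 749 on those of wild type without overlap, a difference of -0.50 ± 0.105 (SE, limma adjusted p = 0.403), -0.55 and -0.45 within the sets. P4ha1 had -0.40 ± 0.0960 (SE, limma adjusted p = 0.556), also without overlap, -0.30 and -0.50 within the sets. These 2 of the 17 genes were lower without overlap, beside 1.49% of all genes. The other subunits had larger p-values, with -0.21 for P4ha3 (limma unadjusted p = 0.132) and -0.08 for P4hb (limma unadjusted p = 0.279). P3h1, a prolyl 3-hydroxylase, had -0.29, with -0.16 and -0.43. Serpinh1, the collagen chaperone, had -0.15, 0.00 and -0.31 within the sets. In the first set 10 of the 17 genes were lower, with a median of -0.01, and in the last 16 of 17, with a median of -0.30.

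Of 9 measured genes of procollagen processing and cross-linking, 8 were lower and 1 higher, with a median of -0.16, 0 called over all probe sets and 2 lower and 0 higher at an unadjusted p under 0.05, beside 2.90% and 2.68% of all genes. In the first set 5 of the 9 were lower, with a median of -0.02, and in the last 7 of 9, with a median of -0.37. Lox, the cross-linking oxidase, had -0.39 ± 0.105 (SE, limma adjusted p = 0.683), -0.24 and -0.53 within the sets. Its relative Loxl4 had -0.40 ± 0.180 (SE), with -0.02 and -0.77. Tll1, a proteinase of the procollagen C-terminus, read 36.4 ± 13.2 against 23.0 ± 7.41 (SD, n = 4 each) and had the 1 positive difference, 0.41, with 0.18 and 0.64 within the sets. Its signal was dim, under the array median on 3 of 4 R26Pax3/Pax3 arrays and on 4 of 4 wild type arrays. Of 6 measured collagen receptors 3 were lower and 3 higher, with a median of 0.07, 0 called over all probe sets, and at an unadjusted p under 0.05 1 lower and 1 higher, beside 2.90% and 2.68% of all genes. Their medians within the sets were 0.03 and -0.17. The integrin subunit gene Itga1 had 0.45 ± 0.153 (SE), 0.76 and 0.15 within the sets. Itga10, a receptor subunit of cartilage cells, had -0.40 ± 0.180 (SE), with -0.08 and -0.71, and their common partner Itgb1 had -0.13, with -0.07 and -0.19.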

How the data were processed

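Signals were linear intensities per probe set on 8 arrays, which the authors computed with MAS5 (version not stated), per the submitters' processing notes. MAS5 brings every array to one target, here a mean of 150 without the lowest and highest 2%, so a shift common to most genes would not show. Probe sets were named from the annotation of the array with symbols updated through RefSeq (GRCm38.p6), and 64 control probe sets were left out. Signals were used as log2(signal + 16), without further normalization, and the dimmest 40% of probe sets by mean signal were removed. Genotypes were compared over all 27021 kept probe sets with limma 3.58.1 in R 4.3.3 (lmFit, eBayes with an intensity trend), with p-values adjusted by the Benjamini-Hochberg method. The procedure was tested on simulated data. These were independent values with the same spread for every probe set, so the simulation does not cover unequal spread between probe sets. SE is limma's, and the number of arrays limits the precision. Classes and lists are described by counts and medians with no test of their own.

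The collagen genes, the marker lists and the lists of synthesis, processing and receptor genes were chosen with earlier results of these data known. Every measured collagen gene is named. Array values are given where groups did not overlap or the unadjusted p was under 0.05, and for the 3 smallest p-values per class, and also for Col1a2 and Col9a3, chosen after their values were seen. Serpinh1 was likewise added to the up to 3 genes named by p from each of the other lists. Alternatives were other pseudocounts, no filter, quantile or median scaling, averaging probe sets, a block or a restriction by deposit order, no trend, and leaving out each array. Limma fits within each set of 4 arrays and a genotype-by-set interaction were added after the data were seen.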

Additional observations from a re-analysis of the deposited data

Results flagged for a closer look

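In 3 of 72 groups of 4 arrays, for 3 collagen genes, 1 array lay far from the other 3 by Dixon's criterion at the 95% level, which chance meets in about 5% of groups. Col1a2 read 11913 in R26Pax3/Pax3 replicate 1 and 9359 to 9789 in the other R26Pax3/Pax3 arrays. Col4a6 read 51.9 in R26Pax3/Pax3 replicate 7 and 60.1 to 61.0 in the others. Col22a1 read 238 in R26Pax3/Pax3 replicate 4 and 170.3 to 174.5 in the others.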

How the results depend on the processing

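No paired analysis was made, because the sample labels do not give the litter of each sample and the genotypes share no replicate number. Any effect of litter is therefore not separated in the p-values. The number of collagen probe sets called stayed 0 under each alternative that gave a test, except the last 4 arrays alone, where it was 1 (Col1a1). With deposit order as a block, which cannot move the differences in this balanced design, 4 calls were made over all probe sets, as without it. Restriction to part of the arrays moved the results most. In the first 4 arrays alone the collagen median was 0.00759 and the fibrillar median -0.0251, with 17 collagen and 6 fibrillar genes lower, 5 collagen probe sets lower at an unadjusted p under 0.05 and 8 calls over all probe sets. In the last 4 arrays alone the medians were -0.24 for all collagens, -0.32 for fibrillar, -0.28 for basement membrane and -0.11 for other collagens, with 25 collagen probe sets lower at an unadjusted p under 0.05 and 15 calls over all probe sets. The limma fits within each set were added after the data were seen. The cause was not tested. Leaving out each array in turn gave fibrillar medians from -0.24 to -0.12, FACIT medians from -0.30 to 0.0190, 7 to 17 collagen probe sets lower at an unadjusted p under 0.05 (counted in this way after the data were seen), and 4 to 9 calls over all probe sets, the 9 without R26Pax3/Pax3 replicate 3. Fibrillar genes with a lower mean numbered 9 or 10 in each of these. Over 18 alternatives, 21 of the 36 collagen genes changed sign at least once, 49 times in 648 values, and 15 did not. Apart from Col9a3 on averaged probe sets, every sign change came from fits on part of the arrays. The block, the fit with no trend and the lack of a filter left these differences as they were. The share over all 648 values is therefore not a measure of how stable the signs were. The lack of a filter added dim genes to the class medians. They were then -0.04 for FACIT, 0.05 for network-forming and -0.02 for other collagens, with 30 collagen genes lower. With the filter these were -0.13, -0.01, 0.01 and 26. With no detection calls used here, signal over background cannot be judged for dim chains such as Col5a3, Col20a1 and Col4a6.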
